A study of Mus musculus with 8 samples.

Results

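The BCL2 family decides whether the mitochondrial route to apoptosis is opened, and 10 of its genes were compared between testes of wild type and of VRK1-deficient mice. The members were Bcl2, Bcl2l1, Bcl2l2, Mcl1, Bax, Bak1, Bok, Bid, Bcl2l11 and Bad. They were chosen by name, as the probes other than controls whose gene name in the array files was one of the 10, which gave 20 probes among 41174. The array files held 27962 gene names in all.

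Testes were taken at postnatal day 8 from 4 wild type mice and 4 mice labelled as VRK1-deficient mutants. The mutant carries a gene trap, a β-geo cassette in an intron of Vrk1, on a C57BL/6 backcross. It comes from 1 embryonic stem cell line and is hypomorphic, so that some full-length VRK1 is still made. Total RNA of whole testes was labelled with Cy3 and hybridized to 1-color Agilent Whole Genome Mouse arrays, 1 array per mouse. Because whole testes were measured, fewer cells of a type and less RNA per cell cannot be told apart.

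BCL2 proteins act at the outer membrane of mitochondria. The prosurvival members BCL2, BCL-XL (Bcl2l1), BCL-W (Bcl2l2) and MCL1 hold the effectors BAX and BAK in check, and effectors that are set free form pores through which cytochrome c leaves and starts the caspase cascade. BOK is a further effector, which the prosurvival members bind less. The BH3-only members BID, BIM (Bcl2l11) and BAD sense stress and bind the other members through their BH3 domain. In the mouse testis an early wave of germ cell apoptosis accompanies the first wave of spermatogenesis. Male mice that lack Bax keep surplus spermatogonia and are sterile, and male mice that lack Bcl2l2 lose their germ cells.

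Of the 20 probes, 4 are shown because the comparisons below turn on their transcripts and because 3 of them, those of Bak1, Bcl2 and Bcl2l11, read coding sequence of domains that define the family. The sequences are those of the array files, 5′ to 3′ in the sense of the transcript, 60 bases each, with positions on build mm7. The Bax probe lies on the minus strand at chr7:41641827-41641982 and reads the coding sequence near the start of the protein. Its 60 bases cover 156 bases of the genome, so it crosses an exon junction. The Bak1 probe (minus strand, chr17:25205887-25205946) and the Bcl2 probe (minus strand, chr1:106612249-106612308) both read the BH1 domain, part of the groove in which BH3 domains are bound. Capitals mark the same 27 bases of BH1 in both, of which 14 are identical. The Bcl2l11 probe (plus strand, chr2:127888010-127899105) reads the core of the BH3 domain, which is in capitals, and its 60 bases cover 11096 bases of the genome.
Bax A_51_P254541: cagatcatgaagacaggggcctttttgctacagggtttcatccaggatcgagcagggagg
Bak1 A_52_P225207: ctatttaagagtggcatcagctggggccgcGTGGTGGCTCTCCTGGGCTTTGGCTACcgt
Bcl2 A_51_P380013: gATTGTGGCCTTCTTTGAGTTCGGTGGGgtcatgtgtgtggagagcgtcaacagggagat
Bcl2l11 A_51_P484880: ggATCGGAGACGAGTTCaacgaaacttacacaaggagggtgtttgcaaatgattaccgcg

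The 8 arrays lay on 2 slides, with replicates 1 and 2 of both genotypes on slide 1 and replicates 3 and 4 on slide 2. Wild type samples took the first positions of each slide, so position and genotype cannot be told apart. The share of spots well above background was 64.2% to 69.5% in wild type and 63.6% to 64.9% in VRK1-deficient samples. Both Vrk1 probes were lower in all 4 VRK1-deficient testes, at 6.54% and 6.23% of the wild type signal (adjusted p = 2.09e-05 and 0.000135). One library stood apart from its group. Over the tested probes with a value on all 8 arrays, wild type replicate 1 correlated with the 4 VRK1-deficient arrays at 0.987 to 0.990. With the other wild type arrays it correlated at 0.970 to 0.986. Results are therefore also given without it.

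Signals are given as the log2 of the processed intensity minus the log2 of the 75th percentile of the array, so that 0 is the signal of a probe at that percentile. A difference of 1 is a doubling, and changes are VRK1-deficient minus wild type. Of all 26948 tested probes, 982 were called (3.64%) at an adjusted p under 0.05 in limma, 530 lower and 452 higher in VRK1-deficient testes. For 16.7% of tested probes the 2 genotypes had no overlap in signal, and 28.8% had an unadjusted p under 0.05.

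Each of the 20 BCL2 family probes exceeded background clearly on 7 or 8 arrays and was tested, and 0 of 20 were called in limma. Without adjustment, 3 of 20 probes had a p under 0.05, against 28.8% of all probes, and 3 of 20 did not overlap, against 16.7%. With each gene read by its brightest probe, 0 of 10 genes were called, and 2 had an unadjusted p under 0.05. The methods' t-test gave 2 genes, Bid and Bad, at an unadjusted p under 0.05, against 26.2% of all probes, and 0 after Benjamini-Hochberg adjustment. In that test the brightest Bad probe, on the strand opposite to the RefSeq Bad probe, had an unadjusted p of 0.0110. The RefSeq Bad probe had 0.966. The median log2 change of the 10 genes was 0.14, compared with 0.041 over all tested probes. The median absolute change was 0.22, compared with 0.24.

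**Figure D1:**
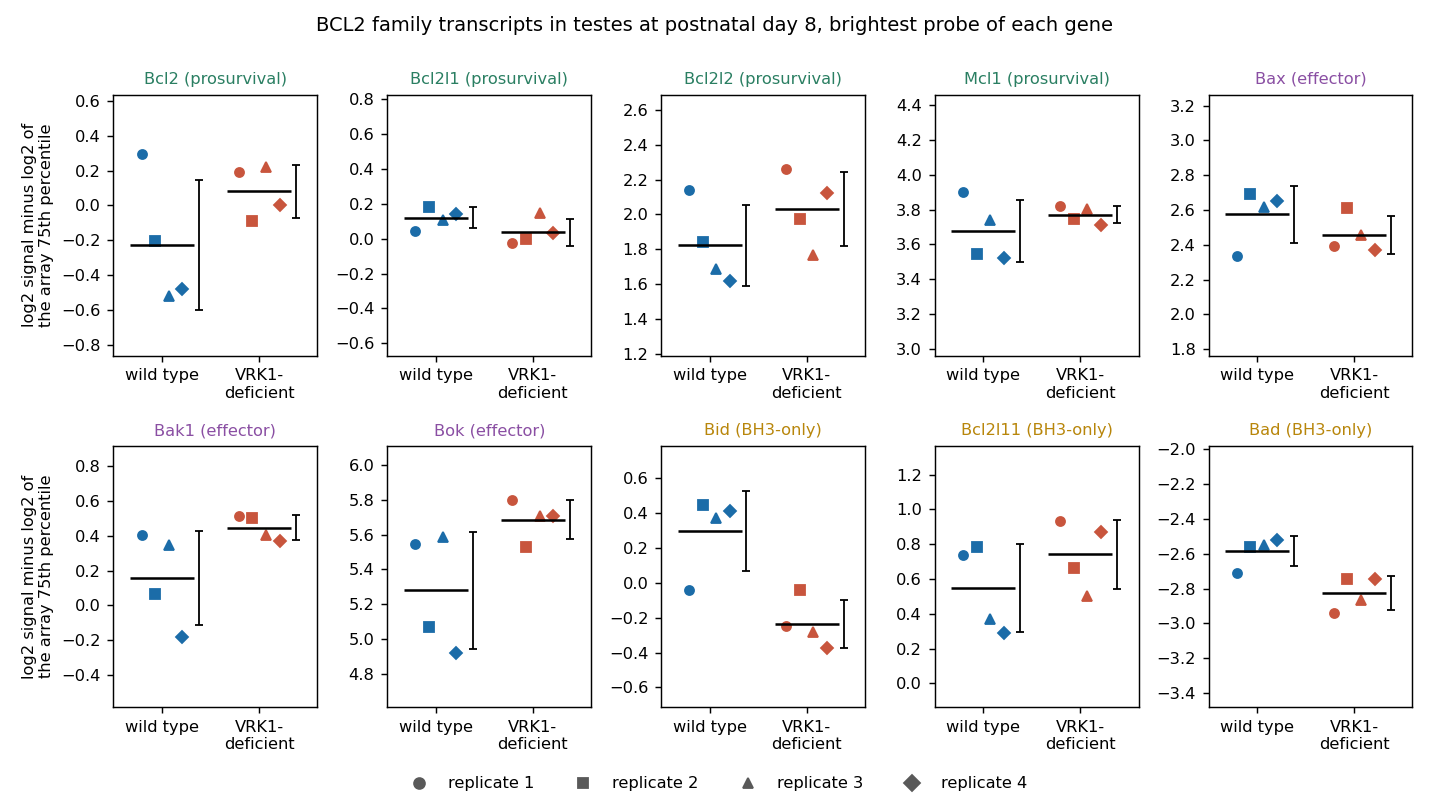
Scaled log2 signal (0 is the array's 75th percentile) of the brightest probe of each gene in wild type (blue) and VRK1-deficient (red) testes. Each symbol is 1 array, the line is the mean and the bar the SD (n = 4 per genotype), and every panel spans the same range. The genotypes overlap for all genes but Bid and Bad. The Bad probe shown lies on the strand opposite to the RefSeq Bad probe, on which the genotypes overlap.

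Of the 4 prosurvival genes, 3 had a higher mean and 1 a lower mean in VRK1-deficient testes, between −0.082 and 0.31, and 0 of 4 passed the test.

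Bcl2, the founding prosurvival gene, was read best by the BH1 probe shown above. Its log2 signal was 0.29, −0.21, −0.52 and −0.48 in wild type replicates 1 to 4, and 0.19, −0.092, 0.22 and 0.0018 in the VRK1-deficient replicates. Wild type replicate 1 was the highest of the 8 arrays, and the other 3 wild type arrays lay below every VRK1-deficient array. The change was 0.31 ± 0.19 (SE; 95% interval −0.11 to 0.73, adjusted p = 0.302). It was 0.0051 on slide 1 and 0.61 on slide 2. Without wild type replicate 1 the change was 0.48 with an adjusted p of 0.0287, but 28.4% of all probes were then called.

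The other Bcl2 probes also had higher means in VRK1-deficient testes. A_52_P534870, which carries the accession of transcript variant 1, lies 174091 bases from the BH1 probe and changed in mean by 0.19 (95% interval −0.18 to 0.56, adjusted p = 0.471). This change was 0.088 without wild type replicate 2 and 0.30 without wild type replicate 3. The probe was printed on the array 10 times. The SD between its spots was 0.025 to 0.093 on an array, whereas the SD between wild type arrays was 0.32. The probe A_52_P438280 had a difference of 0.58 (−0.22 to 1.37, adjusted p = 0.305). Its sign turned between the slides, at −0.17 on slide 1 and 1.33 on slide 2, where its adjusted p was 0.0400.

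Bcl2l1 encodes BCL-XL. The brightest probe gave 0.042, 0.18, 0.11 and 0.14 in wild type testes and −0.028, −0.0012, 0.15 and 0.031 in VRK1-deficient testes. The difference was −0.082 (95% interval −0.31 to 0.14, adjusted p = 0.606). The other probes had differences of 0.17 and 0.13 and wider intervals, so the probes of this gene did not share a sign.

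Bcl2l2 encodes BCL-W, which the testis needs to keep its germ cells. The brightest probe was at 2.14, 1.84, 1.68 and 1.62 in wild type testes and at 2.26, 1.97, 1.77 and 2.12 in VRK1-deficient testes. Both genotypes had replicate 1 as the highest array, and the groups overlapped. The difference was 0.21 (−0.14 to 0.56, adjusted p = 0.397), and that of the second probe was 0.31 (−0.035 to 0.65, adjusted p = 0.213).

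Mcl1, a prosurvival gene whose protein turns over quickly, had overlapping signals. The brightest probe ranged from 3.52 to 3.90 in wild type testes and from 3.71 to 3.82 in VRK1-deficient testes. Its difference was 0.094 (−0.17 to 0.36, adjusted p = 0.622), and the second probe had −0.042 (−0.35 to 0.27).

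**Figure D2:**
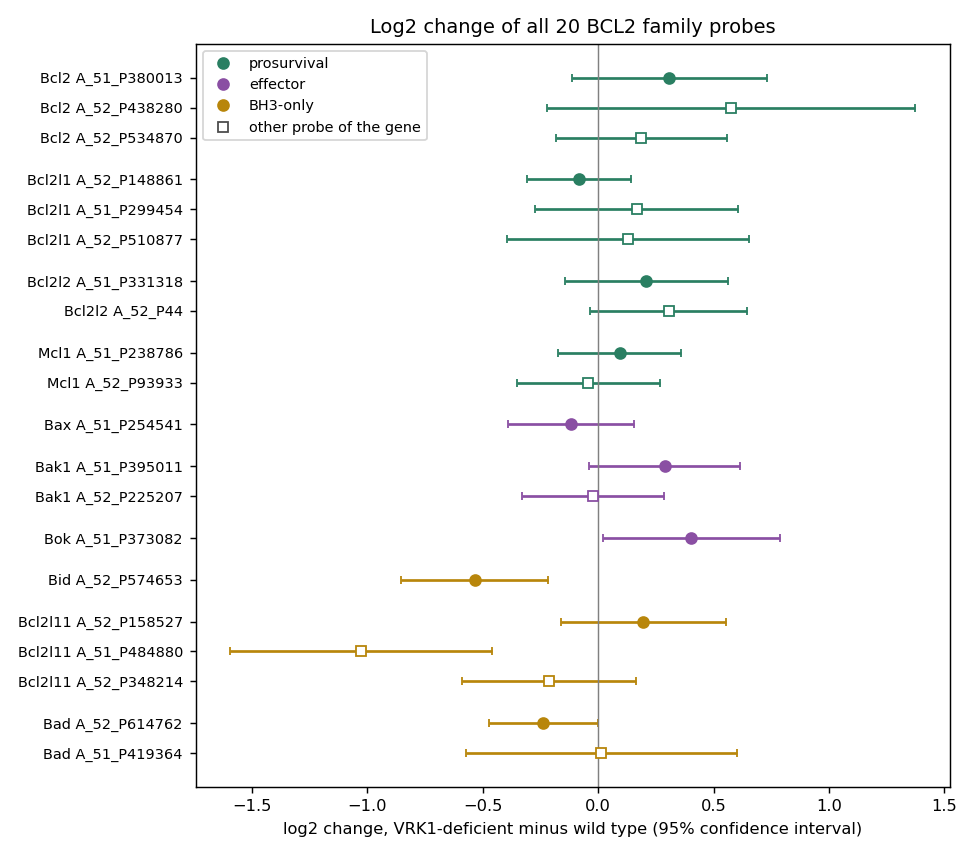
Log2 change (VRK1-deficient minus wild type) with its 95% confidence interval for all 20 probes, grouped by gene and colored by role. Filled circles are the brightest probe of a gene and open squares the other probes. The intervals of Bok, Bid and Bcl2l11 A_51_P484880 leave out 0, and no probe has an adjusted p under 0.05.

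Among the effectors, Bok and Bak1 had higher means and Bax a lower mean in VRK1-deficient testes, and 0 of 3 passed the test. Bax is the effector on which the early germ cell apoptosis of the mouse depends. Its signal was 2.33, 2.69, 2.62 and 2.65 in wild type testes and 2.39, 2.61, 2.46 and 2.37 in VRK1-deficient testes. Wild type replicate 1 was the lowest of the 8 arrays, whereas the other 3 wild type arrays were the highest. The SD between the 10 Bax spots was 0.022 to 0.068 on an array, against an SD of 0.16 between wild type arrays and 0.11 between VRK1-deficient arrays. The difference was −0.12 (95% interval −0.39 to 0.16, adjusted p = 0.546), and without wild type replicate 1 it was −0.20 (adjusted p = 0.19). The interval corresponds to 0.764 to 1.11 times the wild type signal.

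Bak1, the effector closest to Bax in function, had values of 0.41, 0.065, 0.35 and −0.18 in wild type testes and of 0.51, 0.50, 0.40 and 0.37 in VRK1-deficient testes. The VRK1-deficient arrays lay close together, with an SD of 0.070 against 0.27 in wild type. The difference was 0.29 (−0.040 to 0.62, adjusted p = 0.222). The second probe, which reads BH1, did not share it, at −0.021 (−0.33 to 0.29), with −0.25 on slide 1 and 0.21 on slide 2.

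Bok was at 5.54, 5.07, 5.59 and 4.92 in wild type testes and at 5.80, 5.53, 5.71 and 5.70 in VRK1-deficient testes. Replicates 2 and 4 of wild type were low, and replicates 1 and 3 reached the lowest VRK1-deficient array. The difference was 0.40 (0.021 to 0.79), with an unadjusted p of 0.0407 and an adjusted p of 0.156. It was 0.36 on slide 1 and 0.45 on slide 2.

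Of the 3 BH3-only genes, 0 passed the test. Bid, whose product is cut by caspase-8 and so links death receptors to mitochondria, was at −0.040, 0.45, 0.38 and 0.41 in wild type testes and at −0.25, −0.042, −0.28 and −0.38 in VRK1-deficient testes. The genotypes did not overlap, but wild type replicate 1 (−0.0400) and VRK1-deficient replicate 2 (−0.0419) nearly met. The mean signal was 0.69 times that of wild type (95% interval 0.553 to 0.861), a log2 difference of −0.54 ± 0.14 (SE), and the adjusted p of 0.0616 was above the threshold.

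The call of Bid depended on the setting. It passed with an intensity trend and robust variances (adjusted p = 0.0472), under which 7.12% of all probes were called. It also passed after a normexp background correction (log2 change −0.51, adjusted p = 0.0496), under which 5.14% were called. Without wild type replicate 1 the difference was −0.65 (adjusted p = 0.00653), but 28.4% of all probes were then called. It was −0.35 on slide 1 and −0.72 on slide 2.

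Bcl2l11 encodes BIM, which binds all prosurvival members, and its 3 probes did not move alike. The probe across the BH3 core, A_51_P484880, was at −1.58, −0.55, −0.47 and −0.72 in wild type testes and at −2.28, −1.69, −1.72 and −1.75 in VRK1-deficient testes. No VRK1-deficient array reached the lowest wild type array, replicate 1. The signal was 0.491 times that of wild type (95% interval 0.331 to 0.728), a log2 difference of −1.03 ± 0.25 (SE) with an adjusted p of 0.0551. This was the lowest p of the family, at rank 1305 of all tested probes.

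The brightest Bcl2l11 probe, A_52_P158527, lies 4062 bases further along the plus strand, at chr2:127903168-127903227. It was at 0.74, 0.79, 0.37 and 0.29 in wild type testes and at 0.94, 0.66, 0.50 and 0.87 in VRK1-deficient testes, and the groups overlapped. Its difference was 0.20 (−0.16 to 0.55, adjusted p = 0.433). Both probes carry the same RefSeq accession in the array files. The third probe, A_52_P348214, carries the accession of another clone, was well above background on 3 of 4 VRK1-deficient arrays, and gave −0.21 (−0.59 to 0.16). Its change was −0.35 without wild type replicate 1 and −0.12 without wild type replicate 4.

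**Figure D3:**
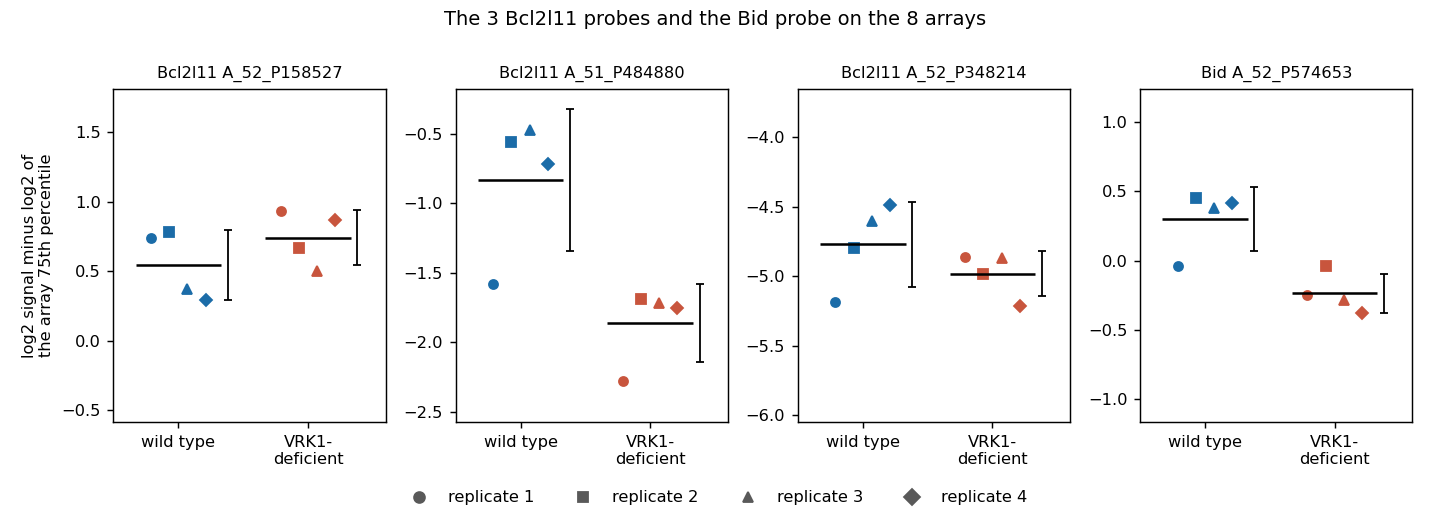
Scaled log2 signal (0 is the array's 75th percentile) of the 3 Bcl2l11 probes and the Bid probe, with 1 symbol per array, the mean as a line and the SD as a bar (n = 4 per genotype). Bcl2l11 A_51_P484880 and Bid separate the genotypes, and the other Bcl2l11 probes overlap.

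The BH3-core probe was past the threshold under 8 of 20 alternative settings, of which 1 was the methods' t-test without adjustment (adjusted p = 0.112 with it). In those 8 settings, 916 to 7641 of all tested probes were called, against 982 in the main fit. The probe's change was below 0 in all 20, between −1.28 and −0.81. Without wild type replicate 1 its difference was −1.28 (adjusted p = 0.00353), but 28.4% of all probes were then called. The difference was −0.92 on slide 1 and −1.14 on slide 2.

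Bad, whose product is held inactive by survival signals, had 2 probes on opposite strands, 8916 bases apart. The brightest, A_52_P614762, lies on the minus strand, opposite to the RefSeq Bad probe, so its signal cannot be taken as that of the Bad transcript. It still stood for Bad wherever genes were read by their brightest probe. This probe was at −2.71, −2.56, −2.55 and −2.52 in wild type testes and at −2.94, −2.74, −2.86 and −2.74 in VRK1-deficient testes. The genotypes did not overlap. The signal was 0.849 times that of wild type (0.72 to 1.00), with an unadjusted p of 0.0504 and an adjusted p of 0.174. The second Bad probe, on the plus strand and with the RefSeq accession, did not share this difference, at 0.014 (−0.57 to 0.60), and its genotypes overlapped.

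Among the arrays left out in turn, only the omission of wild type replicate 1 gave calls in the family. Without it, 2 of 10 genes were called, Bcl2 higher and Bid lower, and 3 of 20 probes, the third being the BH3-core probe of Bcl2l11. The share of all probes called rose to 28.4%, so the members' share was not above that of the array. Without wild type replicate 1, the adjusted p of the remaining genes was above 0.05. Their changes were then 0.49 for Bok (adjusted p = 0.0597), −0.28 for the minus-strand Bad probe (0.0730), 0.37 for Bak1 (0.0785), 0.32 for Bcl2l2 (0.124) and 0.17 for Mcl1 (0.254). The lowest change with an array left out was 0.17 for Bak1, 0.042 for Mcl1 and 0.11 for the brightest Bcl2l11 probe, each without wild type replicate 4. It was 0.21 for Bcl2 without wild type replicate 3 and 0.13 for Bcl2l2 without VRK1-deficient replicate 1. Without any 1 of the other 7 arrays, 0 of 20 probes were called, and only 3 to 68 of all 26948 tested probes were.

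**Figure D4:**
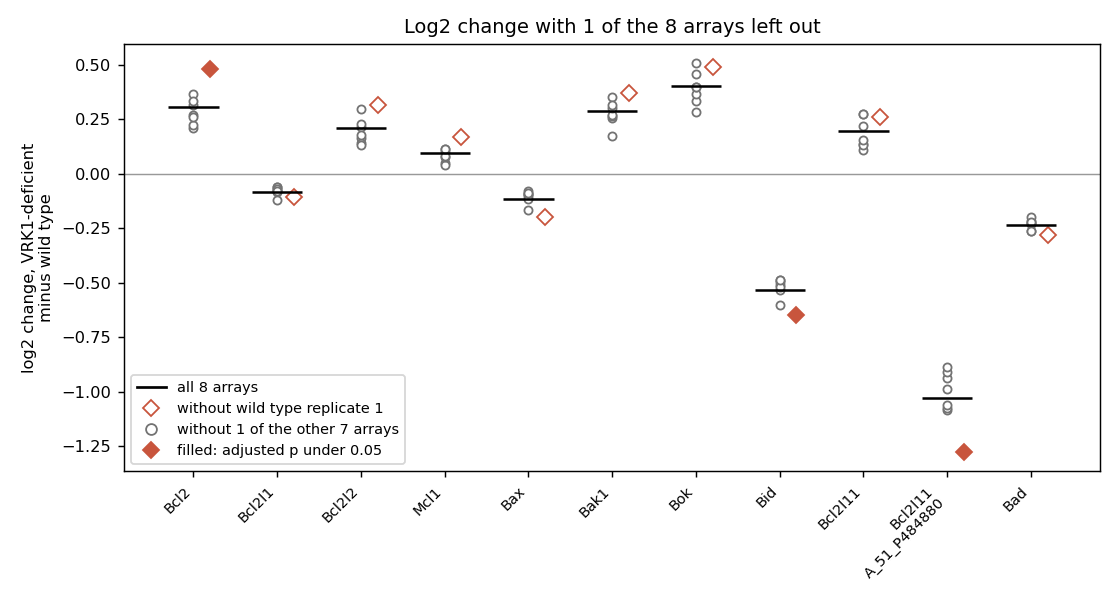
Log2 change (VRK1-deficient minus wild type) of each gene's brightest probe, and of Bcl2l11 A_51_P484880, with all 8 arrays (line) and with 1 array left out (symbols). Filled symbols have an adjusted p under 0.05, which only Bcl2, Bid and Bcl2l11 A_51_P484880 reach, and only without wild type replicate 1 (red). Over all tested probes, 28.4% were called without that array, and 3 to 68 of 26948 without any 1 of the others.

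The balance of Bax with Bcl2, Bcl2l1 and Bcl2l2 was followed within each array, where the scaling between arrays cancels. Mcl1 and the effectors Bak1 and Bok, whose brightest probes changed by 0.094, 0.29 and 0.40, were not followed in this way. The log2 difference of Bax minus Bcl2 was 2.80 ± 0.52 (SD, n = 4) in wild type and 2.38 ± 0.23 in VRK1-deficient testes, a change of −0.42. The change was −0.016 on slide 1 and −0.83 on slide 2, and −0.68 without wild type replicate 1. Bax minus Bcl2l2 changed from 0.75 ± 0.38 to 0.43 ± 0.28, by −0.33, with −0.13 on slide 1, −0.52 on slide 2 and −0.51 without wild type replicate 1. Bax minus Bcl2l1 was 2.45 ± 0.11 and 2.42 ± 0.14. All 3 differences overlapped between genotypes, and they were not tested. For Bcl2 and Bcl2l2 the overlap came from wild type replicate 1 (2.04 and 0.19), since the other 3 wild type arrays lay above every VRK1-deficient array. The differences carry the probes' own brightness and can be compared between genotypes only.

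The patterns of Bax and Bcl2l2 over the 8 arrays were matched with those of all genes, as a description over arrays that share genotype and slide. The genes most like Bax were Grpel2 (Pearson's r = 0.992), Gemin2 (0.990) and Mrps7 (0.974). Those most like Bcl2l2 were Emc1 (0.981), Tmem114 (0.978) and Tlnrd1 (0.978).

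The rest of the apoptosis machinery was read from lists of genes around the family. Of 9 tested genes among other BCL2 relatives, 1 was called, against 3.64% of all tested probes, 3 had an unadjusted p under 0.05, against 28.8%, and their median log2 change was −0.079. The called gene was Bik, a BH3-only gene of the endoplasmic reticulum, at −0.62 (95% interval −0.92 to −0.33, adjusted p = 0.0474). Bik lost this call under 14 of 20 alternatives, with changes between −0.83 and −0.42. Its signal was −0.77, −0.50, −0.43 and −0.30 in wild type and −1.15, −0.95, −1.13 and −1.26 in VRK1-deficient testes, with no overlap.

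Pmaip1 encodes NOXA, a BH3-only target of p53 that binds MCL1. It was at 0.021, −1.72, −1.35 and −2.07 in wild type testes and at 0.15, −0.15, 0.023 and 0.035 in VRK1-deficient testes. Wild type replicate 1 lay within the VRK1-deficient range, and the other 3 wild type arrays lay far below it. The difference of 1.29 (0.43 to 2.16) had an adjusted p of 0.0765. It passed under 5 of 20 alternatives, among them those without wild type replicate 1 (1.73, adjusted p = 0.00322), with normexp (adjusted p = 0.0395) and on slide 2 alone (adjusted p = 0.0403). These named settings called 7641, 1386 and 1059 of all 26948 tested probes. Bcl2a1b had −0.32 (adjusted p = 0.511, and −0.080 without VRK1-deficient replicate 3), and Bnip3l had 0.0063 (adjusted p = 0.974).

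Downstream of the mitochondria, 0 of the 21 genes of cytochrome c release, caspases and their inhibitors reported here were called in limma, against 3.64% of all tested probes, and 8 had an unadjusted p under 0.05, against 28.8%. Of the 21, 12 had higher and 9 lower means, with a median of 0.042. Casp6, an executioner caspase, was at 3.00, 2.85, 2.34 and 2.93 in wild type and at 2.96, 3.29, 3.50 and 3.14 in VRK1-deficient testes, with overlap (difference 0.44, adjusted p = 0.142). Dffb, the apoptotic nuclease, had 0.69 (adjusted p = 0.222). Its lowest array was wild type replicate 3 (−4.06), without which the difference was 0.30, and it was 0.16 on slide 1 and 1.22 on slide 2. Cyct, the testis form of cytochrome c, had −0.53 (adjusted p = 0.106), and Endog, a mitochondrial nuclease, had −0.32 (adjusted p = 0.125).

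In the death receptor pathway, 1 of 8 tested genes was called, against 3.64% of all tested probes, 4 of 8 had an unadjusted p under 0.05 (3 higher, 1 lower), against 28.8%, and 4 of 8 did not overlap, against 16.7%. The median was 0.27. Fas, the receptor of Fas ligand, was at −2.65, −2.87, −2.60 and −2.65 in wild type and at −2.19, −2.17, −2.11 and −2.34 in VRK1-deficient testes. It was the called gene, with a difference of 0.49 (0.24 to 0.74, adjusted p = 0.0493). Fas lost this call under 15 of 20 alternatives, with changes between 0.31 and 0.58. Casp8, the initiator caspase that cuts BID, did not overlap between genotypes, but its difference of 0.46 (−0.11 to 1.02) had an adjusted p of 0.257. It was at 0.70, 0.63, −0.45 and 0.72 in wild type and between 0.73 and 1.01 in VRK1-deficient testes, and without wild type replicate 3 the difference was 0.17. Tnfrsf10b, the TRAIL receptor, had −0.76 (adjusted p = 0.111), and the adaptor Tradd had −0.035 (adjusted p = 0.895).

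Of the 13 upstream regulators reported here, 0 were called in limma, against 3.64% of all tested probes, and 4 had an unadjusted p under 0.05, against 28.8%. Kit, the stem cell factor receptor of differentiating spermatogonia, had −0.85 (adjusted p = 0.0633), whereas its ligand gene Kitl, made by Sertoli cells, had 0.48 (adjusted p = 0.115). Foxo3, a transcription factor restrained by survival signals, had −0.47 (adjusted p = 0.255). Trp63, a relative of p53, had 0.53 (0.19 to 0.87, adjusted p = 0.0704). The calls of Bik and Fas each ended when any 1 array other than wild type replicate 1 was left out, and each was kept without that array. Over all tested probes, 3 to 68 were called without any 1 of those other arrays, against 982 with all arrays. Without wild type replicate 1, 7641 were called. With slide as a block both calls ended, at an adjusted p of 0.0512 for Bik and 0.0538 for Fas.

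**Figure D5:**
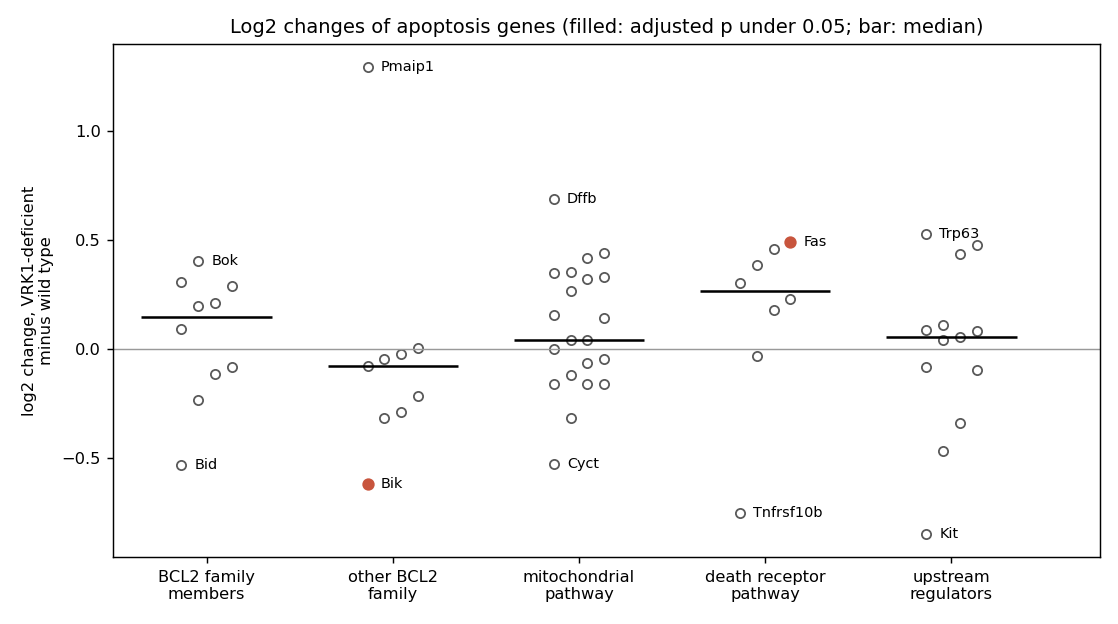
Log2 change (VRK1-deficient minus wild type) of the 10 BCL2 family members and of the tested genes of 4 apoptosis lists, 1 symbol per gene, with the median as a bar. The called genes, Bik and Fas, are filled, and the gene at either end of each list is named.

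Markers of cell types were read in the same RNA. All 11 germ cell markers had lower means in VRK1-deficient testes, and all 11 were well above background. Of the 11, 2 were called, against 3.64% of all tested probes. They were Tdrd1 (−1.11, adjusted p = 0.0499) and Dmrtb1 (−1.81, adjusted p = 0.0493), both just under the threshold. All 11 had an unadjusted p under 0.05, against 28.8% of all tested probes. The mean log2 signal of the list was 1.21, 2.18, 2.59 and 2.38 in wild type replicates 1 to 4 and between 0.56 and 1.35 in VRK1-deficient testes. Wild type replicate 1, which lay nearest the VRK1-deficient arrays for Bcl2, Bax, Bid and the Bcl2l11 BH3-core probe, had the lowest germ cell level of its group.

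Of 8 markers of undifferentiated spermatogonia, 1 was called higher, Bcl6b (0.61), and 1 lower, Sall4 (−0.99), against 3.64% of all tested probes. Of the 8, 4 genes with higher and 3 with lower means had an unadjusted p under 0.05, against 28.8%. The genotypes did not overlap for 6 of 8, against 16.7% of all tested probes. The mean level of the list lay between −1.93 and −1.45 in wild type and between −1.94 and −1.69 in VRK1-deficient testes. Sertoli cell markers had higher means for 8 of 10 genes and 0 calls in limma. Of the 10, 4 with higher and 2 with lower means had an unadjusted p under 0.05, against 28.8% of all tested probes, and the list lay between 1.73 and 2.47 in wild type and between 2.19 and 2.54 in VRK1-deficient testes. Mast cell markers were called higher for 4 of 5 genes, Cpa3 (1.90), Tpsb2 (1.59), Cma1 (1.54) and Mcpt4 (1.51), against 3.64% of all tested probes, while Kit, which is also among the germ cell markers, had −0.85. The mean level of the 5 lay between −3.68 and −3.22 in wild type and between −2.54 and −1.96 in VRK1-deficient testes. Leydig cell markers (1.03 to 1.66 and 1.29 to 1.91), peritubular markers (2.90 to 3.16 and 2.66 to 3.11), macrophage markers (−0.94 to −0.51 and −0.70 to −0.53) and erythroid markers (2.87 to 3.93 and 2.76 to 4.02) overlapped. Of the last 4 lists, 1 gene was called, Cnn1 of the peritubular cells, which was lower. Without wild type replicate 2, and on slide 1 alone, 3 probes were called over the whole array. The calls of the marker lists, germ cell and mast cell markers among them, therefore did not all hold there. With any other array left out, 4 to 68 probes were called over the whole array, except without wild type replicate 1, where 7641 were. The part of these cell types in the BCL2 family values was not tested.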

How the data were processed

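Total RNA of testes at postnatal day 8 was measured on 8 single-color Agilent arrays, 4 per genotype, each from a biological replicate per the labels. The authors extracted the spots with Agilent Feature Extraction 9.5.3.1 (version from the submitters' processing notes), which subtracts background, and deposited linear signal intensity values that were not scaled between arrays. The deposited value table held the same intensities on all 8 arrays. Further steps in GeneSpring GX are named in the methods, and the normalization made there is not stated in the sources used here. Other columns per the file headers were flags for controls, outliers, saturation and signal well above background. Positions are those in the array files (mm7) and were not converted.

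Here log2 intensities were scaled to the 75th percentile of each array, outlier spots (58 to 134 per array) were left out and spots of a probe averaged. No spot other than controls was saturated. A probe entered the test when 4 or more of the 8 arrays had it well above background, which took at least 0.5 of its spots where it was printed several times. Genotypes were compared with limma 3.58.1 (lmFit, eBayes) in R 4.3.3, with Benjamini-Hochberg adjustment over all 26948 tested probes, a threshold of 0.05 and 95% intervals. A gene was represented by its brightest probe. The number of arrays limits the precision.

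The members and gene lists were chosen with earlier results of these data known, and 2 genes of the lists are not reported here. The genes named are all members with every probe, the called genes of the lists, the 2 genes with the largest and the 2 with the smallest change in each apoptosis list, the 3 genes most like Bax and Bcl2l2, and Vrk1. Alternatives were quantile normalization, no scaling, a normexp correction with an offset of 50, no filter on dim probes or one that asks for all 8 arrays, averaging over a gene's probes, slide or replicate number as a block, each slide alone, the methods' t-test, an intensity trend with robust variances, and each array left out. The fit was also run on simulated data, of which no result is reported here. Tables used the R package data.table (1.17.8), pandas 2.3.3 and numpy 2.4.6 under Python 3.11.15, and figures used matplotlib 3.10.9. Replicate numbers were not used to pair the samples, except in the replicate block.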

Additional observations from a re-analysis of the deposited data

Results flagged for a closer look

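In each genotype, the highest and lowest of the 4 arrays were compared with their neighbors for all 20 BCL2 family probes, 40 groups in all, of which 2 held an array far from the others. Chance flags about 1 in 20 groups. The BH3-core probe of Bcl2l11 (A_51_P484880) was at −2.28 (log2 relative to the 75th percentile) in VRK1-deficient replicate 1, and the next array was at −1.75. Bid (A_52_P574653) was at −0.0400 in wild type replicate 1, and the next wild type array was at 0.38. The germ cell markers were also lowest of their group on both of these arrays, at 0.56 and 1.21, and their part was not tested.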

How the results depend on the processing

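Across the 21 alternatives, Bcl2, Bcl2l2, Bax, Bak1, Bid, Bad and Bok kept the sign of their log2 change. For Bad this was read from the minus-strand probe, alone or averaged with the plus-strand probe. The plus-strand Bad probe by itself turned sign in 4 of 20. Mcl1 turned to −0.085 without scaling, a setting that moved the median of all tested probes from 0.041 to −0.14. Relative to that median Mcl1 was at 0.053 there, and the other members kept their sign by it. With all probes of a gene averaged, Bcl2l1 turned to 0.071 and Bcl2l11 to −0.35 (adjusted p = 0.105). The count of members called by their brightest probe was 1 with normexp, 1 with an intensity trend and robust variances, 2 with the methods' t-test unadjusted, and 0 to 2 with an array left out.

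Calls over all probes numbered 17 with no filter, 626 with slide as a block, 3 on slide 1, 217 with the methods' t-test after Benjamini-Hochberg adjustment and 7065 without it, 1920 with an intensity trend, and 3 to 7641 with an array left out (7641 without wild type replicate 1). Without scaling, 0 other BCL2 relatives and 0 death receptor genes were called, and with normexp 0 death receptor genes and 1 upstream regulator. With no filter, slide as a block, slide 1 alone, or the adjusted t-test, 0 genes were called in each of these lists, and on slide 2 alone 0 death receptor genes and 1 upstream regulator. The unadjusted t-test gave 3 other relatives, 7 mitochondrial, 3 death receptor and 4 upstream genes. An intensity trend gave 2 mitochondrial genes and 1 upstream gene. With an array left out, the counts were 0 to 2 other relatives, 0 to 6 mitochondrial, 0 to 3 death receptor and 0 to 3 upstream genes, the highest without wild type replicate 1. The causes were not tested, beyond the fewer arrays and the fewer or more probes of some settings.

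Single probes turned sign as follows. Without scaling, Bad A_51_P419364 was at −0.17, Bcl2l1 A_51_P299454 at −0.013, Bcl2l1 A_52_P510877 at −0.049 and Bnip3l at −0.17. Relative to the median of all tested probes, these 3 member probes were at −0.027, 0.13 and 0.089 both with and without scaling. On slide 1 alone, Bcl2 A_52_P438280 was at −0.17, Bcl2l1 A_51_P299454 at −0.042, Bcl2l1 A_52_P510877 at −0.10, Bcl2l11 A_52_P348214 at 0.069, Mcl1 A_52_P93933 at 0.14 and Bcl2a1b at 0.071. On slide 2 alone, Bak1 A_52_P225207 was at 0.21, Bnip3l at −0.069 and Tradd at 0.062. With normexp, Bak1 A_52_P225207 was at 0.051, Bcl2l11 A_52_P348214 at 0.20, Bcl2a1b at 0.061, Foxo3 at 0.064 and Bnip3l at −0.033. With quantile normalization, Bak1 A_52_P225207 was at 0.021 and Bnip3l at −0.0073. With an array left out, Bad A_51_P419364 ranged from −0.14 to 0.26, Bak1 A_52_P225207 from −0.11 to 0.034, Bcl2l1 A_51_P299454 from −0.029 to 0.27, Bcl2l1 A_52_P510877 from −0.12 to 0.24, Mcl1 A_52_P93933 from −0.12 to 0.058, Bnip3l from −0.026 to 0.048 and Tradd from −0.16 to 0.051.

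The Vrk1 probe A_51_P102339 was at −3.67 with an adjusted p of 0.0622 on slide 1 alone. The change of Bax minus Bcl2 was −0.016 on slide 1 and −0.83 on slide 2. That of Bax minus Bcl2l1 was 0.12 on slide 1, −0.18 on slide 2 and −0.19 with the mean of all probes.

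Whether replicate numbers pair the samples was not settled, because 4 correlations are too few to decide it. Deviations of arrays with the same number correlated at −0.14 to 0.47, and those with different numbers at −0.37 to 0.27. With the replicate block, 2280 probes, 2 other BCL2 relatives, 1 upstream regulator and 0 members by their brightest probe were called, although the BH3-core probe of Bcl2l11 passed (adjusted p = 0.0216).

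With 4 arrays per genotype, the 95% intervals of the members' brightest probes reached at least 0.22 log2 units to either side of the estimate.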
